A study of Mus musculus with 4 samples.

Results

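This account covers 3 microRNA hairpins of the mouse, those of miR-146a, miR-146b and miR-155, in extracellular vesicles from muscle cells. The members are the rows of the deposited count table for the 5p arms, found by their mature IDs, and for the 3p arms within 60 bases on the same strand. They come to 6 of the 2110 rows, the 5p arms being MIMAT0000158 for miR-146a, MIMAT0003475 for miR-146b and MIMAT0000165 for miR-155, and no ID disagreed with the RefSeq name at its position. Of the 6, only the 3 rows of the 5p arms passed the filter on low counts, which kept 536 rows in all.

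The vesicles came from C2C12, a mouse myoblast line of WT genotype grown with 10% fetal bovine serum, and were collected by differential centrifugation. The damaged group held 2 libraries from cells given hydrogen peroxide, an oxidant, and the WT group 2 libraries from cells whose treatment label reads WT. No dose or exposure time is given in the sources used here. The stated aim was to compare the miRNA cargo of vesicles from damaged and healthy muscle, and the model is a single cell line in culture. The labels do not tie replicates to separate cultures, so the spread behind each p-value is that between these libraries and may be technical.

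A miRNA hairpin is cut into a short duplex. Usually the strand from 1 arm is kept and bound to an Argonaute protein, and its seed, bases 2 to 8, pairs with target mRNAs. miR-146a is induced by NF-kB signalling, and both miR-146a and miR-146b damp that signalling by targeting the signalling proteins TRAF6 and IRAK1. miR-155, cut from the transcript of Mir155hg, is induced in activated immune cells and targets brakes on cytokine signalling such as SOCS1. All 3 have been described as raised in inflamed or dystrophic muscle.

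The 5p sequences are shown because the members turn on 2 seeds, which stand in capitals. All sequences are RefSeq entries of build GRCm38.p6, written 5′ to 3′, and all 6 members had an entry.
miR-146a-5p: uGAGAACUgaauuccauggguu
miR-146b-5p: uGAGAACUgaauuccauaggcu
miR-155-5p: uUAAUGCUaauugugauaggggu
miR-146a-5p and miR-146b-5p shared the seed and 20 of 22 positions. Counted from 1 at the 5′ end, with the base of miR-146a-5p first, they differed by G18A and U21C. Both differences lie near the 3′ end, so a read must reach position 18 to tell the pair apart. Among 1957 mature IDs with a sequence, no other had the seed of the miR-146 pair, and none had the seed of miR-155-5p. Outside the members, and aligned from the 5′ end without gaps, the closest mature sequence of like length differed from miR-146a-5p at 8 positions, from miR-155-5p at 9 and from miR-146b-5p at 10.

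The hairpins are shown because their arms were recovered so unequally, and capitals mark the 2 mature arms, 5p first.
Mir146: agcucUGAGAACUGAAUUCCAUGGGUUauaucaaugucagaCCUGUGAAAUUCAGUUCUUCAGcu
Mir146b: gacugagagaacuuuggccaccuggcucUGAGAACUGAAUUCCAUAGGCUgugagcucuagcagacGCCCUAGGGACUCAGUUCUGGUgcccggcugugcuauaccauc
Mir155: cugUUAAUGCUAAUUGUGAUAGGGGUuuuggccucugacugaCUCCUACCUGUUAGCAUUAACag
In mm10 coordinates, Mir146 lies on the minus strand at chr11:43374397-43374461, between annotated genes of GENCODE vM21. Mir146b lies on the plus strand at chr19:46342762-46342870, in an intron of the protein-coding gene Mfsd13a. Mir155 lies on the plus strand at chr16:84714140-84714204, in an exon of the long non-coding gene Mir155hg. No member row shared bases with another entry of the table on either strand.

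The damaged libraries held 6901394 and 7350345 counts, and the WT libraries 4577668 and 7638663. The floor for a row at 0 was taken as 3 counts, or 0.393 to 0.655 CPM (counts scaled to library depth). The muscle miRNA miR-206-3p was the leading row in every library. Shares, floors and their intervals cover counting error only, since no source used here speaks of molecular identifiers.

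miR-146a-5p was the most abundant member and was higher in damaged vesicles. It had 16804 and 20306 counts in the damaged libraries, against 5336 and 7153 in the WT libraries. After TMM scaling these were 2451 and 2701 CPM in damaged vesicles and 1182 and 939 CPM in WT vesicles. Both damaged libraries thus lay above both WT libraries, with a wide gap between the groups. Its mean was 2576 ± 176 CPM in damaged and 1060 ± 171 CPM in WT vesicles (SD, n = 2 each). The change was 2.43-fold, or 1.28 ± 0.16 on the log2 scale (SE), and passed edgeR's quasi-likelihood test with Benjamini-Hochberg adjustment over all tested rows (adjusted p = 0.0161). It was the only call among the 3 tested members, set beside 51 calls among all 536 tested rows, or 9.51%, of which 22 were higher, or 4.1%, and 29 lower, or 5.41%. In 3 of the 4 fits that left out a library the call was lost, with adjusted p = 0.0985 without damaged replicate 1, 0.134 without WT replicate 1 and 0.132 without WT replicate 2, while the log2 fold change stayed between 1.15 and 1.38. Those 3 fits called 0 rows of the whole table, with 103 to 144 rows under an unadjusted p of 0.05, and DESeq2 on all 4 libraries called 109.

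**Figure D1:**
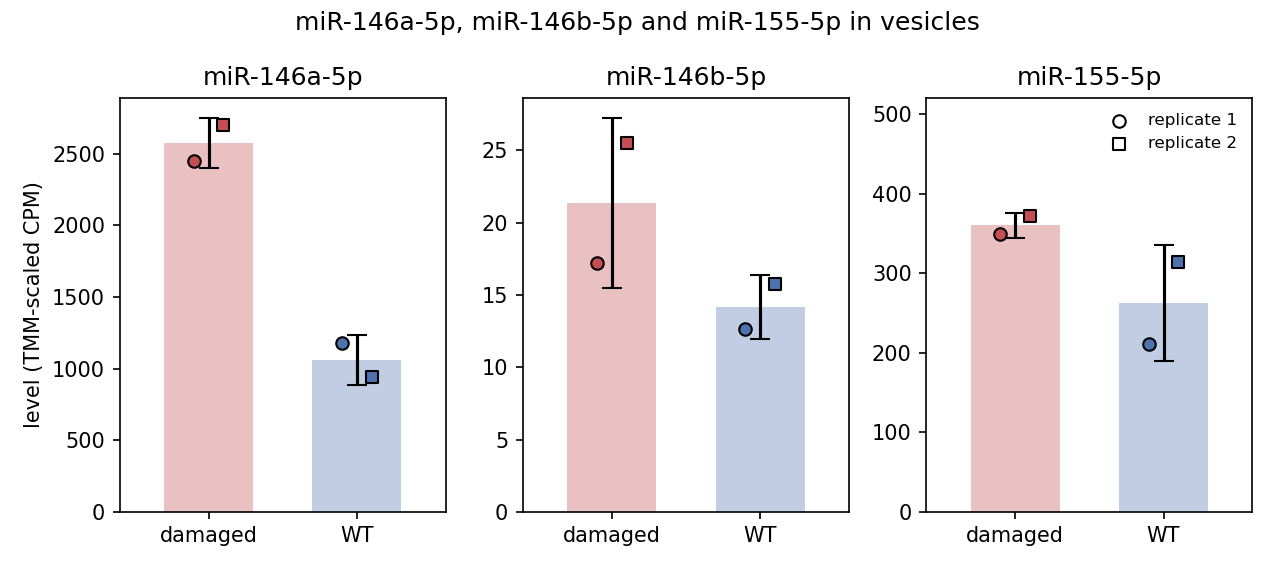
Levels of the 3 tested members in TMM-scaled CPM, with bars for group means, error bars for the SD of 2 libraries and a symbol for each library. miR-146a-5p stands at 2451 and 2701 CPM in damaged vesicles and at 1182 and 939 CPM in WT vesicles, and for each member both damaged libraries lie above both WT libraries.

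miR-146b-5p, the seed mate of miR-146a-5p, was scarce. It had 118 and 192 counts in damaged and 57 and 120 counts in WT libraries, which is 17.2 and 25.5 CPM in damaged against 12.6 and 15.8 CPM in WT vesicles. The groups did not overlap, but damaged replicate 1 and WT replicate 2 lay close together. The exact 95% Poisson intervals of the raw counts were 97.7 to 141 in damaged replicate 1 and 99.5 to 143 in WT replicate 2. These intervals are not scaled, and the 2 libraries held 6901394 and 7638663 counts in that order. The log2 fold change was 0.59 ± 0.35 (SE), which did not pass edgeR's test (adjusted p = 0.320). It stood at 0.27 without damaged replicate 2 and at 0.36 without WT replicate 1.

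miR-155-5p, with a seed of its own, lay between the other members in level. It had 2393 and 2792 counts in damaged and 951 and 2394 counts in WT libraries. Scaled, it stood at 349 and 371 CPM in damaged and at 211 and 314 CPM in WT vesicles. Again the groups did not overlap, but the WT libraries lay further apart from each other than WT replicate 2 did from the damaged ones. The log2 fold change was 0.46 ± 0.22 (SE), which did not pass edgeR's test (adjusted p = 0.239). This value rested on which WT library was used: it was 0.12 without WT replicate 1 (adjusted p = 0.808) and 0.80 without WT replicate 2 (adjusted p = 0.170).

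Both damaged libraries lay above both WT libraries in CPM for 3 of 3 tested members, and the same was true of 156 of 536 tested rows, or 29.1%. The median log2 fold change over all tested rows was 0.02. The 2 WT libraries differed by 0.33, 0.32 and 0.58 on the log2 scale for miR-146a-5p, miR-146b-5p and miR-155-5p in that order, against a median of 0.31 over the 475 tested rows with counts in every library. The 2 damaged libraries differed by 0.14, 0.57 and 0.09, against a median of 0.32. miR-155-5p thus had a close pair of damaged libraries and a wide pair of WT libraries.

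Among the 536 tested rows, miR-146a-5p ranked 47th by mean CPM, 11th by smallest p and 53rd by log2 fold change. miR-155-5p ranked 107th by mean CPM and 155th by log2 fold change, and miR-146b-5p ranked 262nd by mean CPM. Within 2-fold of the mean CPM of miR-146a-5p there were 36 other tested rows, of which 15 were called, 9 of them higher. In that range 2 rows had a larger log2 fold change than miR-146a-5p, up to 3.05.

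**Figure D2:**
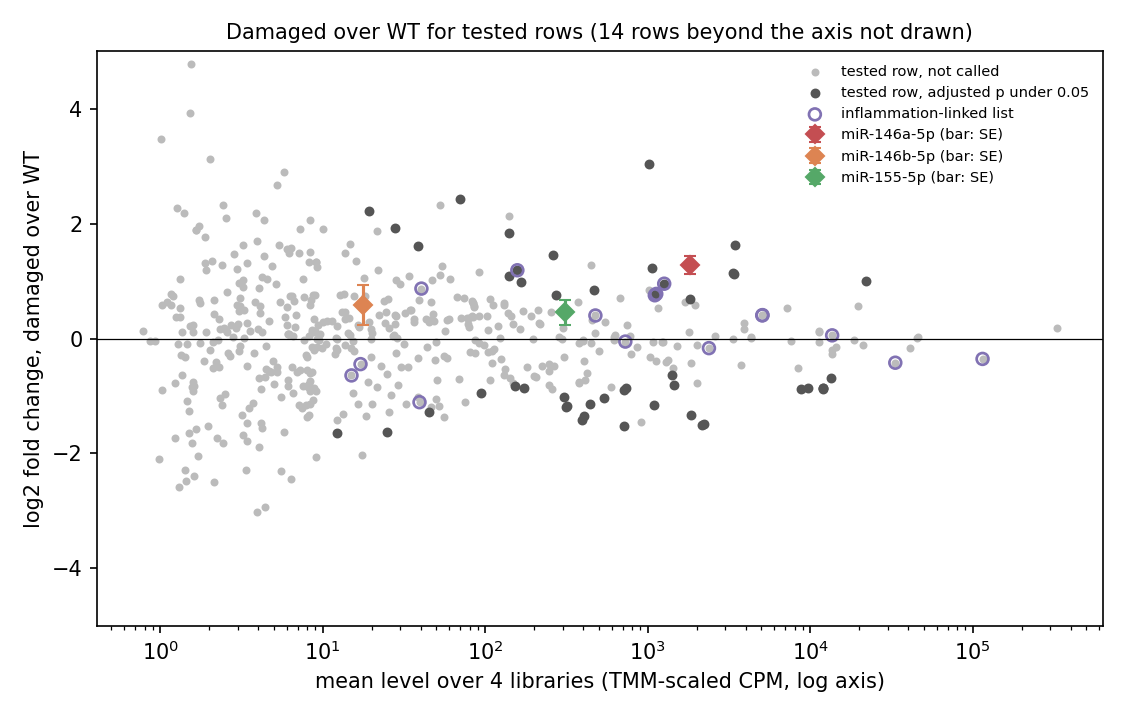
Log2 fold change of damaged over WT against mean CPM (log axis) for the tested rows, with rows called at adjusted p under 0.05 in dark grey, the inflammation-linked list ringed and the members as diamonds with SE bars. miR-146a-5p lies at 1.28, miR-146b-5p at 0.59 and miR-155-5p at 0.46, and 14 rows beyond a log2 fold change of 5 in size are not drawn.

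Since both seed mates can bind the same seed sites, their counts were also summed. The miR-146 seed took 0.245% and 0.279% of counts in the damaged libraries, against 0.118% and 0.0952% in the WT libraries. The sum stood 1.28 ± 0.15 higher in damaged vesicles on the log2 scale (SE; edgeR adjusted p = 0.0131 with the sum as a row of the table), so reads counted for the wrong seed mate would not move it. That call too was lost in 3 of the 4 fits without a library, with adjusted p = 0.0990 without damaged replicate 1, 0.168 without WT replicate 1 and 0.133 without WT replicate 2. miR-146b-5p made up 0.697% and 0.937% of the summed pair in the damaged libraries, against 1.06% and 1.65% in the WT libraries. The exact 95% intervals were 0.578 to 0.835 and 0.809 to 1.08 in damaged, and 0.801 to 1.37 and 1.37 to 1.97 in WT libraries. The interval of damaged replicate 2 overlapped that of WT replicate 1.

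Ratios within a library do not depend on scaling and show whether members moved unequally. There were 142 and 106 counts of miR-146a-5p for each count of miR-146b-5p in the damaged libraries, against 93.6 and 59.6 in the WT libraries. The ratio was 1.65-fold higher in damaged vesicles, with no overlap of the groups. Set against miR-155-5p, miR-146a-5p had 7.02 and 7.27 counts for each in the damaged libraries, and 5.61 and 2.99 in the WT libraries. That ratio was 1.75-fold higher in damaged vesicles, again with no overlap. The difference in mean log2 ratio was 0.72 for the first pair and 0.80 for the second, each with exact two-sided permutation p = 0.333, the smallest p that 2 libraries against 2 allow. Without WT replicate 2 the second difference was 0.35, and without WT replicate 1 it was 1.26.

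**Figure D3:**
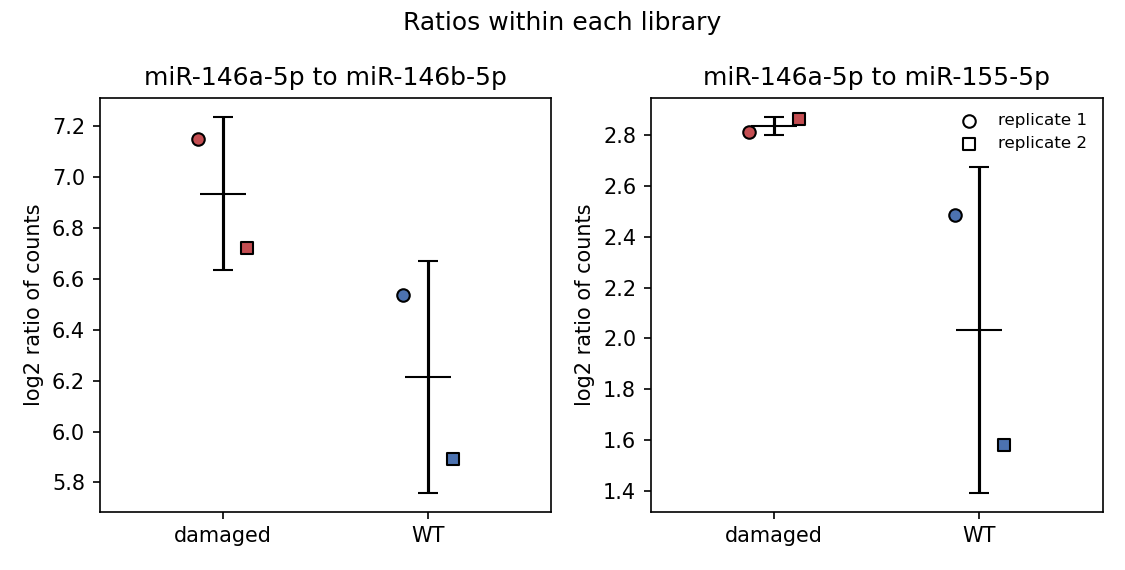
Log2 ratio of counts within each library, with the group mean and the SD of 2 libraries. Both ratios are higher in the 2 damaged libraries than in the 2 WT libraries, and the WT libraries stand far apart for the ratio to miR-155-5p.

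The 3p arms, the strands that are usually discarded, were at or near 0. miR-146a-3p was listed at 0 in all 4 libraries beside 49599 counts of its 5p partner. Whether reads of that arm were lost before counting cannot be seen in the table, so the bounds that follow describe the table's counts and not the vesicles. With a floor of 3 counts per library, the 5p count was at least 5601-fold and 6769-fold higher than the 3p count in the damaged libraries and at least 1779-fold and 2384-fold in the WT libraries. That floor is 0.0179% and 0.0148% of the counts of both arms in the damaged libraries, and 0.0562% and 0.0419% in the WT libraries. The exact 95% intervals of the 3p share reach further, to 0.02195% and 0.0182% in damaged and 0.0691% and 0.0516% in WT libraries. Hairpins were compared where the names of the 2 arms differ only in 5p or 3p and no entry lies on the opposite strand. This left out hairpins whose arms carry unlike names, such as miR-196a-5p and miR-196a-1-3p. Of the 769 compared, 28 had a major arm with at least as many counts as miR-146a-5p. The hairpin of miR-146a was the only 1 of those 28 whose minor arm was at 0 in every library. In the same set of 769, 25 other hairpins had a major arm within 2-fold of those counts. Of these, 0 had such a minor arm, and the median of their minor arms was 678 counts. A minor arm at or near 0 was not particular to miR-146a. Outside that set, miR-196a-1-3p was at 0 in all 4 libraries. Its partner miR-196a-5p had 38217 and 51034 counts in damaged and 51773 and 84720 in WT libraries. miR-181b-1-3p was also at 0 in all 4 libraries, beside 5137 to 8108 counts of miR-181b-5p. Among the 28, the minor arm of miR-23a had 1 count beside 532240, and that of miR-149 had 3 beside 87567.

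miR-146b-3p was also at 0 in every library, but with 57 to 192 counts of its partner a rare strand was not detectable at this depth. miR-155-3p had 7 and 25 counts in damaged and 5 and 3 counts in WT libraries. That is 0.292% and 0.887% of both arms in damaged (exact 95% intervals 0.117 to 0.600 and 0.575 to 1.31) and 0.523% and 0.125% in WT libraries (0.170 to 1.22 and 0.0258 to 0.365). The groups overlapped, and damaged replicate 2 was the highest. The mean log2 ratio of the 5p to the 3p arm was 7.55 in damaged and 8.43 in WT vesicles, a difference of -0.88 (n = 2 each; exact two-sided permutation p = 0.667) that turned to 0.11 without WT replicate 2.

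**Figure D4:**
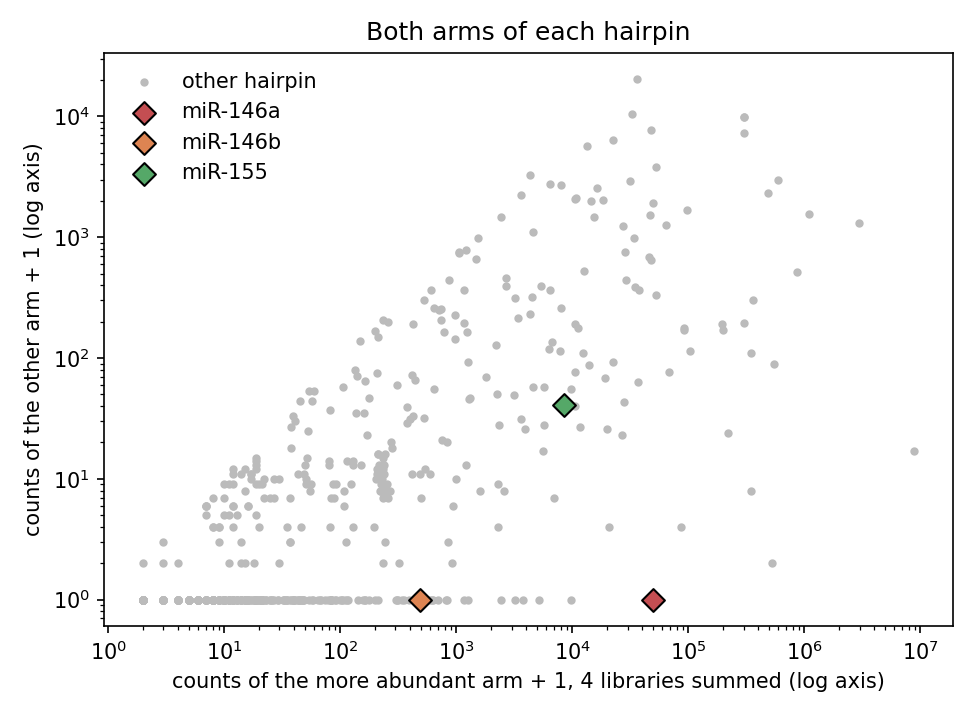
Counts summed over 4 libraries for the more abundant arm and for the other arm of each hairpin, both plus 1 on log axes. The hairpins of miR-146a and miR-146b lie on the baseline where the other arm is at 0, miR-146a far to the right at 49599 counts, while miR-155 has counts on both arms.

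The tested rows most like each member were sought by the root mean square difference of centred log2 CPM over the 4 libraries. The 3 rows nearest to miR-146a-5p were miR-328-3p, let-7e-3p and miR-296-5p, at differences of 0.137, 0.137 and 0.155. miR-328-3p, the nearest, stood at 173 and 206 CPM in damaged and at 91.9 and 85.8 CPM in WT vesicles. miR-3057-5p, miR-128-3p (of Mir128-2) and miR-107-3p lay nearest to miR-146b-5p, at 0.0572, 0.0654 and 0.0964. That copy of miR-128-3p had a log2 fold change of 0.64 (edgeR adjusted p = 0.0948). The copy of Mir128-1 had 0.85 and was called higher (adjusted p = 0.0460). For miR-155-5p the nearest rows were miR-138-5p, miR-365-3p and miR-181d-5p, at 0.0531 to 0.0564. Like miR-155-5p, these had their lowest CPM in WT replicate 1. With 4 libraries such likeness is a description only.

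Other miRNAs linked to inflammation were read from a list of 18 names with 24 rows. Of 16 tested rows, 4 rose, 0 fell and 12 did not pass edgeR's test, and the median log2 fold change was 0.23, against 0.02 over all tested rows. With identical rows summed the list's median was 0.02, against 0.06 over all rows. Other settings also called rows of the list lower, with 6 higher and 2 lower in DESeq2, 6 and 3 with the replicate block, and 7 and 1 with no filter. Over all tested rows, these settings called 109 of 536, 127 of 536 and 131 of 1001. In the 4 fits without a library the list's median ran from 0.11 to 0.25, against -0.07 to 0.07 over all tested rows. The 4 calls of the reported fit, all higher, stand beside 9.51% of all tested rows called in either direction and 4.1% called higher. Calls were more frequent within 2-fold of the mean CPM of miR-146a-5p, where 15 of 36 other tested rows were called, 9 of them higher. That range takes in the called rows of miR-125a-5p and miR-125b-5p. Of the list's 4 calls, 2 are identical copies of miR-125b-5p. miR-125a-5p, which targets the deubiquitinase TNFAIP3 in the NF-kB pathway, as miR-125b-5p does, stood at 1464 and 1868 CPM in damaged and at 765 and 952 CPM in WT vesicles (log2 fold change 0.96, edgeR adjusted p = 0.0360). The copies of miR-125b-5p had log2 fold changes of 0.75 and 0.78 (adjusted p = 0.0305 each). miR-212-3p, of the CREB-responsive cluster of miR-212 and miR-132, averaged 219 ± 41.0 CPM in damaged and 95.9 ± 14.2 CPM in WT vesicles (SD, n = 2 each; log2 fold change 1.19, adjusted p = 0.0335), and its cluster partner miR-132-3p had 0.87 (adjusted p = 0.0800).

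The 2 most abundant rows of that list that were not called were miR-21a-5p, a stress-responsive miRNA, at a log2 fold change of -0.35 (adjusted p = 0.331 by edgeR), and miR-27b-3p, a regulator of myogenic and lipid genes, at -0.42 (adjusted p = 0.124). Of the list's 24 rows, 7 were at 0 in every library, and 4 of these, all of miR-9-5p or miR-203-3p, share bases with an entry on the opposite strand. Under the GC correction, which called 14 of 536 tested rows in all, the list had 0 calls and miR-146a-5p kept its own. The list's median log2 fold change was then 0.27, against 0.03 over all tested rows.

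Markers of other cell types were read beside the rise of miR-146a-5p, which immune cells also express. Of 9 blood or immune names, 8 were matched, 6 rows were tested and 0 were called by edgeR. The share called over all tested rows was 9.51%. The matched rows summed to 1630 and 1572 CPM of library totals in damaged and 1801 and 1616 in WT libraries, most of it miR-451a of red blood cells. Log2 fold changes were 0.50 for miR-150-5p (edgeR adjusted p = 0.332), -0.03 for miR-342-3p (adjusted p = 0.949) and -0.14 for miR-451a (adjusted p = 0.533). miR-223-3p, of myeloid cells, averaged 14.4 ± 0.06 CPM in damaged and 19.7 ± 9.35 CPM in WT vesicles (SD, n = 2 each; adjusted p = 0.533). miR-142a-5p, found across blood cells, had 21 and 22 counts in damaged and 1 and 0 counts in WT libraries (adjusted p = 0.0903), and miR-144-3p of red blood cells had 12 and 14 against 0 and 0 (adjusted p = 0.0807). Both lay below the floor of 3 counts in the WT libraries and above it in the damaged ones. Their log2 fold changes were 4.78 ± 1.45 and 6.60 ± 1.72 (SE). miR-142a-3p and miR-486-5p, and the endothelial and liver markers miR-126a and miR-122, were at 0, but their rows share bases with an entry on the opposite strand. Of 5 tested muscle rows, 3 were called higher, all of miR-133 and 2 of them identical copies. Over all tested rows 4.1% were called higher and 9.51% in either direction. The part of these markers in the rise of miR-146a-5p was not tested, nor that of bovine serum, whose conserved miRNAs may share a sequence with those of the mouse. In bulk vesicles, more vesicles of a kind and more miRNA per vesicle cannot be told apart.

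The rise of miR-146a-5p was called in all 11 other settings on 4 libraries, at log2 fold changes of 1.23 to 1.51. It was also among the 14 rows called after a GC correction of the counts (edgeR adjusted p = 0.0236), and among the 127 called with the replicate number as a block. miR-146b-5p and miR-155-5p were called in none of the 11, at 0.51 to 0.81 and 0.37 to 0.69. Their lowest adjusted p over these settings was 0.184 for miR-146b-5p and 0.0590 for miR-155-5p.

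**Figure D5:**
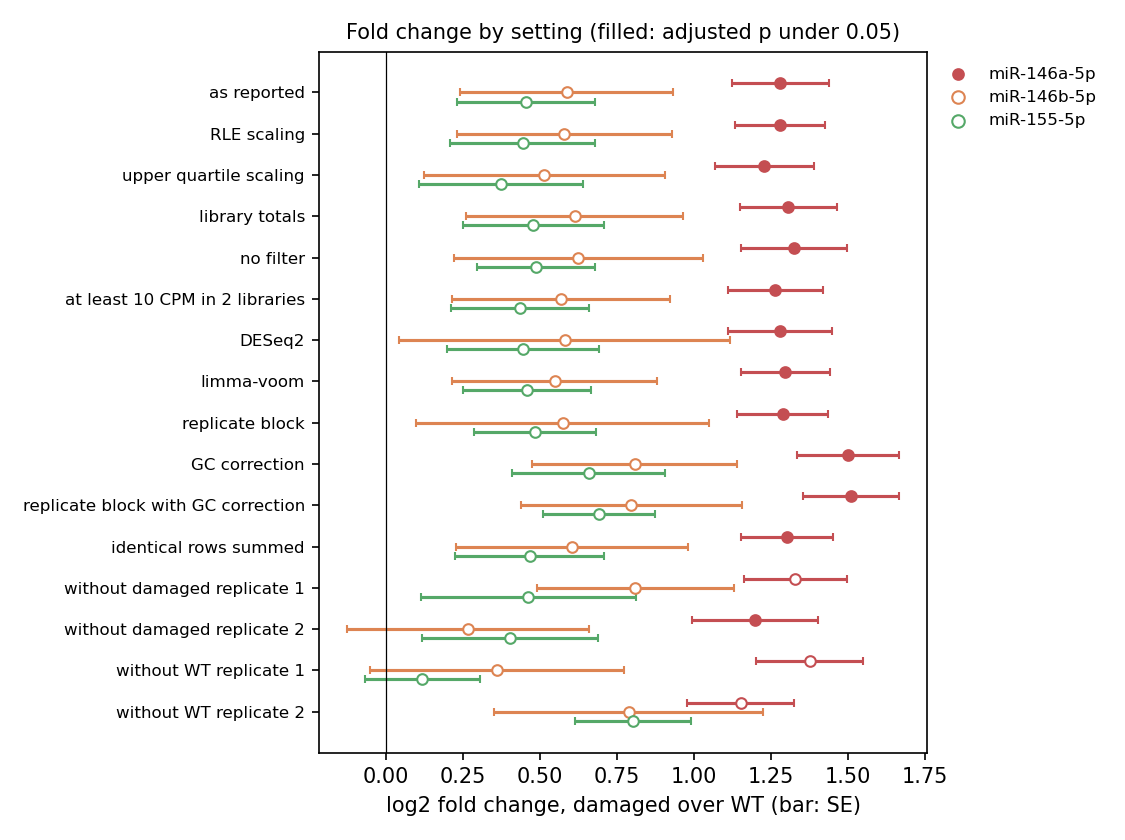
Log2 fold change of damaged over WT with its SE for the 3 tested members in the reported fit, 11 other settings on 4 libraries and 4 fits without a library; filled symbols have an adjusted p under 0.05. miR-146a-5p stays between 1.15 and 1.51, and miR-155-5p ranges from 0.12 without WT replicate 1 to 0.80 without WT replicate 2.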

How the data were processed

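The deposited file holds raw read counts per mature miRNA entry, a column per library. Per the submitters' processing notes, BWA, FastQC and the build mm10 were used. Per the file headers, featureCounts 2.0.1 counted features of type miRNA, with no strand, multi-mapping or multi-overlap option. The sources used here do not give trimming, the BWA version or the miRBase release. Depth was 4577668 to 7638663 counts.

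Rows took RefSeq names by position (1734 of 2110), otherwise those of a row with the same ID or of the GENCODE vM21 hairpin within 3 bases (2100 named in all). The test was edgeR 4.0.16 (R 4.3.3) with TMM, filterByExpr at a minimum count of 10 and group as the only term. SE is the log2 fold change divided by the root of F. Other settings were RLE, upper quartile and library-total scaling, no filter, at least 10 CPM in 2 libraries, DESeq2 1.42.0, limma-voom (limma 3.58.1), a replicate block, a lowess GC correction, both together, identical rows summed, and each library left out. Scripts were tested on simulated data. Within-library log2 ratios used a pseudocount of 0.5. The text names all members, the 3 rows most like each tested 5p arm, and from the inflammation-linked list the called rows and the 2 most abundant others. Markers were a fixed list. Members and lists were chosen with earlier results of these data known.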

Additional observations from a re-analysis of the deposited data

How the results depend on the processing

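miR-146a-5p, miR-146b-5p, their sum and miR-155-5p kept their direction in every setting, and no setting on 4 libraries moved a member across the threshold. Without a library, the log2 fold change ran from 1.15 to 1.38 for miR-146a-5p, 1.15 to 1.36 for the sum (adjusted p = 0.0498 to 0.168 by edgeR), 0.27 to 0.81 for miR-146b-5p and 0.12 to 0.80 for miR-155-5p. The difference in log2 ratio ran from 0.40 to 1.04 against miR-146b-5p, from 0.35 to 1.26 against miR-155-5p and from -1.87 to 0.11 for the arms of miR-155. The number of rows called, 51, became 77 with upper quartile scaling, 131 with no filter, 91 with at least 10 CPM in 2 libraries, 109 with DESeq2, 79 with limma-voom, 14 with the GC correction and 0 to 30 without a library. The 4 calls of the inflammation-linked list became 8 with no filter, 8 with DESeq2, 0 with the GC correction and 0 in each fit without a library. The cause of these shifts was not tested. With the replicate block 127 rows and 9 of the list were called, and 23 and 2 with the replicate block and GC correction. The labels link same-numbered libraries by a number only. Deviations of same-numbered libraries had a correlation of 0.003 over 536 rows. With 2 libraries per group this does not show whether same-numbered libraries were prepared together. The block gave log2 fold changes of 1.29, 0.57, 1.28 and 0.48 for miR-146a-5p, miR-146b-5p, their sum and miR-155-5p, and changed no call among them. miR-155-3p could be fitted on 4 libraries only without a filter (log2 fold change 1.59, adjusted p = 0.727 by edgeR). Both miR-146 3p arms were at 0 in every library and have no fold change.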
